A study of Mus musculus with 37 samples.

Results

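The genes described here act in the release of neurotransmitter from synaptic vesicles: *Snap25*, *Stx1a*, *Vamp2*, *Syt1*, *Syt11*, *Cplx1*, *Cplx2*, *Syn1*, *Syn2* and *Syp*. All array probes that carry one of these gene symbols were taken, which gave 12 probes of 10 genes among the 24620 probes of the array. The platform annotation named 11 of these probes, and the probe for *Syt11*, which it does not list, was named from a gene table published with the study. RNA came from pooled hippocampal punches of 37 female CSS15F2 mice aged 3 to 4 months, each measured on 1 Illumina MouseRef-8 V1.1 array. These mice are an intercross in which C57BL/6J is the host strain and A/J the donor of chromosome 15, so that they differ from each other only in chromosome 15. No genotype or behavioral score of a mouse enters the comparisons, so all 37 form 1 group and the comparisons run over mice. None of the 10 genes lies on chromosome 15. In bulk tissue, fewer neurons and less of an mRNA per neuron cannot be told apart.

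Vesicle fusion is driven by a SNARE bundle in which synaptobrevin on the vesicle (*Vamp2*) zippers with syntaxin (*Stx1a*) and SNAP25 (*Snap25*) on the plasma membrane. Synaptotagmin 1 (*Syt1*) is the calcium sensor for fast release, complexins (*Cplx1*, *Cplx2*) clamp and assist the bundle, and synapsins (*Syn1*, *Syn2*) tether vesicles in the reserve pool. Synaptophysin (*Syp*) is an abundant vesicle membrane protein that binds synaptobrevin. Pyramidal and granule neurons of the hippocampus make glutamatergic terminals that use this machinery, and interneurons use it for GABA release.

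Values are log2 signals after background correction and quantile normalization, and a probe counted as detected on an array with a detection p under 0.01. The number of detected probes ranged from 5281 to 10724 over the arrays with a median of 8704. The tests used the 8541 probes that were detected on at least 19 arrays. The first principal component of these probes held 49.9% of their variance, and its Pearson correlation with the number of detected probes was 0.90 in size. The 13 BeadChips held from 1 to 6 arrays, and their numbers form a first set of 26 arrays and a second set of 11. Of the 12 probes for markers of hippocampal neurons, 9 were detected on at least 19 arrays.

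The SNARE genes differed in whether the array could measure them. Neither *Snap25* probe was above background: probe 360520 was detected on 1 of 37 arrays and probe 1090670 on 0, with medians of 4.96 and 4.42. *Snap25* transcript therefore could not be followed here, and the absence of signal says nothing about its amount. The *Stx1a* signal ranged from 10.68 to 11.88 with a median of 11.22, and was 11.25 ± 0.27 (SD, n = 37 mice). That of *Vamp2* ranged from 11.15 to 12.23 with a median of 11.63 (11.64 ± 0.27, SD, n = 37 mice). After quantile normalization both were among the steadier transcripts, since only 11.2% and 10.9% of the detected probes had a smaller SD than *Stx1a* and *Vamp2*. The spreads depended on that step. Without it, each array was only centred on its median log2 value over all its probes, a level near background. The SD then was 0.63 for *Stx1a* and 0.48 for *Vamp2*, beside 0.53 for *Syp* and 0.56 for *Cplx1*. *Stx1a* was then no longer steadier than *Syp* and *Cplx1*.

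The synaptotagmins varied more. *Syt1* lay between 9.56 and 12.19 with a median of 11.03 and an SD of 0.81 (n = 37 mice). *Syt11*, a family member that does not bind calcium in the way *Syt1* does, ranged from 11.31 to 13.85 with a median of 13.21 (12.96 ± 0.73, SD, n = 37 mice). Of the detected probes, 91.9% had a smaller SD than *Syt1* and 88.0% a smaller SD than *Syt11*, against a median SD of 0.44. *Syt11* values fell into separate groups by a Gaussian mixture, 9 mice from 11.31 to 12.43 and 28 mice from 12.70 to 13.85, while those of *Syt1* were continuous.

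The complexins stood apart from each other in spread. *Cplx1* ranged from 12.25 to 13.63 with a median of 13.38 (13.22 ± 0.34, SD, n = 37 mice), and 7 mice between 12.25 and 12.81 were separated from 30 mice between 12.97 and 13.63 by a gain in the Bayesian information criterion just past the limit of 10. *Cplx2* ranged from 4.54 to 10.22 with a median of 9.39 (8.52 ± 2.02, SD, n = 37 mice), and 99.97% of the detected probes had a smaller SD. On the authors' normalized values the SD of *Cplx2* was 1.14. It was detected on 29 arrays, and the Gaussian mixture put its values into 3 groups: 9 mice from 4.54 to 7.06, 21 mice from 8.11 to 10.10 and 7 mice from 10.15 to 10.22. The upper groups adjoin at 10.10 and 10.15 and are not separate levels. Fits within the 21 mice therefore cover a cut range of *Cplx2*. The lowest *Cplx2* values are at background and have no order among themselves. The groups were shared, since all 7 mice of the low *Cplx1* group and all 9 of the low *Syt11* group were in the low *Cplx2* group. These were mostly the arrays that gave least signal: the 9 mice of the low *Cplx2* group included the 8 arrays with the fewest detected probes (5281 to 7430, the next having 7665), the ninth array had 8704, and 4 of the 9 lay on 1 BeadChip of 6 arrays.

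Both *Syn1* probes were detected on every array. Probe 4920301 ranged from 12.35 to 13.89 with a median of 13.37 (13.30 ± 0.47, SD, n = 37 mice). Probe 7050440 ranged from 10.14 to 11.52 with a median of 11.06 (11.03 ± 0.36, SD, n = 37 mice). *Syn2* ranged from 9.96 to 12.85 with a median of 11.92 (11.76 ± 0.76, SD, n = 37 mice), a spread greater than that of 90.2% of the detected probes. *Syp* lay between 13.08 and 14.60 with a median of 14.18 (14.08 ± 0.38, SD, n = 37 mice), and 34.3% of the detected probes had a smaller SD. None of the *Syn1*, *Syn2* and *Syp* probes split into groups of mice.

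**Figure D1:**
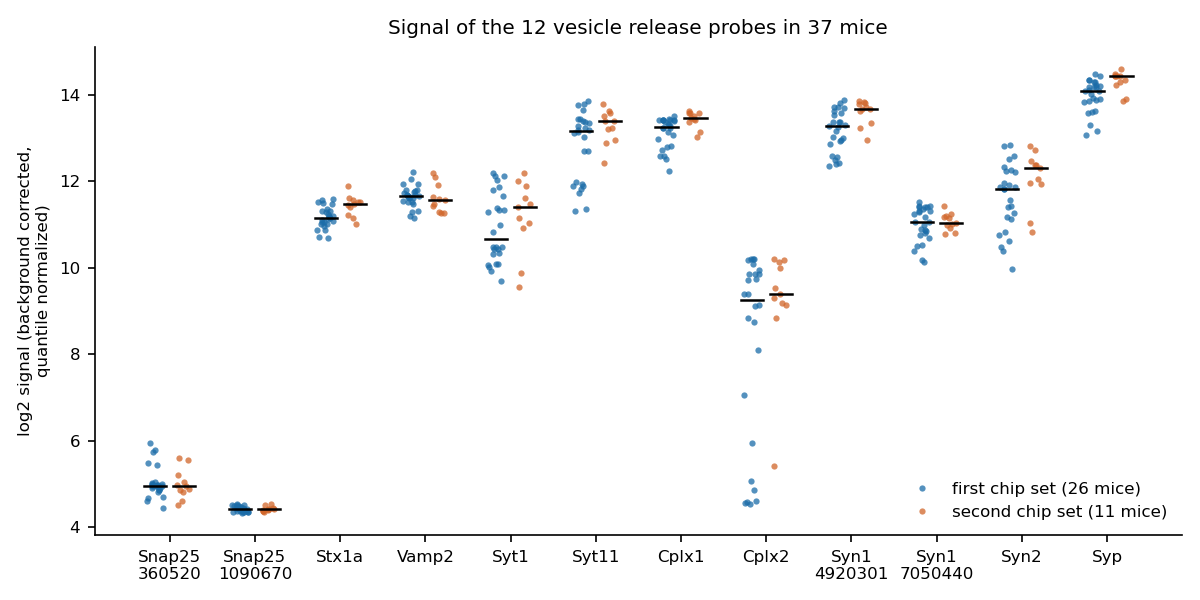
Log2 signal (vertical axis) of each of the 12 probes in the 37 mice, 1 point per mouse, with the 26 arrays of the first chip set and the 11 of the second side by side and a bar at each median. Both *Snap25* probes lie at background below 6, and *Cplx2* spreads from 4.54 to 10.22.

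The start-site regions of *Syn1*, *Syn2* and *Syp* are shown because these genes followed each other over the mice in the comparisons that come next. Between *Syn1* and *Syp* this held for *Syn1* probe 4920301 only, and other members followed these genes too. The promoters of *Syn1*, *Syn2* and *Syp* differ in known motif letters. Each sequence is the RefSeq window of 250 bases before to 50 after the gene's start on GRCm38.p6, in the direction of transcription, with matches to the motifs in capitals. Motifs were searched on both strands as plain letters: the GC box of Sp factors (GGGCGG), the cyclic AMP response element CRE (TGACGTCA), the Egr site (GCGGGGGCG, which can overlap a GC box), the first letters of the RE1 element bound by the neuronal repressor REST (TCAGCACC) and the TATA box (TATAAA).
*Syn1* (chrX:20920869-20921168, minus strand): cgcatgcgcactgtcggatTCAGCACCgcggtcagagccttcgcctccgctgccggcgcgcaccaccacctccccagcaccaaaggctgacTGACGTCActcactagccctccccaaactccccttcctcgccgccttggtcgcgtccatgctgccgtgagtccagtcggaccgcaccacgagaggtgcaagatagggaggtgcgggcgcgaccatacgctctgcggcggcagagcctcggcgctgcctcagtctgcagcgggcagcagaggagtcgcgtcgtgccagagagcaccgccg
*Syn2* (chr6:115134652-115134951, plus strand): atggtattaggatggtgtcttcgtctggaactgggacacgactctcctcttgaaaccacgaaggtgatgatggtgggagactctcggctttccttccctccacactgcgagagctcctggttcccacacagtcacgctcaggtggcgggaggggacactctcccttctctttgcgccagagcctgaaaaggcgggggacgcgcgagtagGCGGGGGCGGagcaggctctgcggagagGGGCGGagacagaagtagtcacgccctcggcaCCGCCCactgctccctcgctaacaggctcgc
*Syp* (chrX:7638330-7638629, plus strand): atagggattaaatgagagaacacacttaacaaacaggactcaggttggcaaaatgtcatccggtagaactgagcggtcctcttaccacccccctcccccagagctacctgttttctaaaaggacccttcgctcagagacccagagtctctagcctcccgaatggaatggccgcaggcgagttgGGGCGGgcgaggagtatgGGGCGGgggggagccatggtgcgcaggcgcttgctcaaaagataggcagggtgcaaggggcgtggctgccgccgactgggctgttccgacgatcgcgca

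The *Syn1* window held 1 RE1 start and 1 CRE and no GC box, and 1.65% and 1.79% of 32851 mouse promoter windows held these letters. The *Syn2* window held 3 GC boxes, of which 1 overlapped an Egr site (letters found in 2.91% of all windows), and the *Syp* window held 2 GC boxes. A further *Syn2* window (chr6:115238744-115239043), not at the gene's start and not shown, held none of the motifs and had a GC content of 51.0%. Over the 10 windows found for 8 of the genes, 6 held a GC box, against 35.7% of all windows, and 0 held TATAAA, against 13.6%. These include further windows of *Syn2* and *Syt1*, and the windows of *Cplx2*, *Syt1* and *Syt11* are not placed exactly at the gene's start. The GC content was 68.3% for *Syn1*, 62.3% for *Syn2* and 59.0% for *Syp*, against a median of 52.7%. A match of letters is not a measured site.

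The BeadChips and chip sets were examined as batches. No member probe differed between the 13 BeadChips (limma moderated F test, adjusted p under 0.05), where 0.796% of all tested probes did. At an unadjusted p under 0.05, *Syp* and *Syn1* probe 4920301 differed, 2 of 10 against 16.4% of all probes. Between the second and the first chip set, 0 of 10 passed, as did 0% of all probes, while 4 of 10 had an unadjusted p under 0.05 against 9.32% of all probes. These were *Stx1a* (higher by 0.27 ± 0.10, SE, in the second set), *Syn1* probe 4920301 (0.43 ± 0.15), *Syp* (0.34 ± 0.13) and *Cplx1* (0.30 ± 0.12), each with an adjusted p of 0.516 in limma. This fit treats the 37 arrays as independent, although no BeadChip lies in both sets. The median was 13.68 in the second set against 13.28 in the first for *Syn1* probe 4920301, 14.44 against 14.09 for *Syp*, 11.48 against 11.16 for *Stx1a* and 13.46 against 13.27 for *Cplx1*, with overlapping ranges in each case.

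Most of the release genes rose with the number of probes detected on the array, which is a measure of how much signal an array gave. Of the 10 tested probes 8 rose and 1 fell (limma, slope per SD of the number of detected probes, adjusted p under 0.05), where 37.6% of all tested probes rose and 29.4% fell. *Cplx2* rose by 1.59 ± 0.20 log2 units per SD (SE, adjusted p = 5.43e-09), *Syt1* by 0.64 ± 0.08 (adjusted p = 5.06e-09), *Syt11* by 0.63 ± 0.06 (adjusted p = 1.79e-11) and *Syn2* by 0.58 ± 0.08 (adjusted p = 6.54e-08). The rise was 0.27 ± 0.06 and 0.14 ± 0.06 for the *Syn1* probes, 0.24 ± 0.05 for *Syp* and 0.19 ± 0.05 for *Cplx1*. *Vamp2* fell by 0.12 ± 0.04 (adjusted p = 0.0127), and the slope of *Stx1a* was 0.048 ± 0.047 (adjusted p = 0.373). The slopes of *Cplx1*, *Cplx2* and *Syt11* pool mice of the separate level groups, and that of *Cplx2* includes arrays where it was at background and was 0.89 on the authors' normalized values. Among probes detected on all 37 arrays 7 of 9 members rose and 1 fell, against 25.6% and 37.5% of all such probes. The median slope was 0.26 over the 10 probes and 0.035 over all tested probes. These directions are relative to the other transcripts of an array. Without quantile normalization the median slope of all tested probes was 0.55 and 90.5% of them rose, all 10 member probes included. Relative to that median *Cplx2* (1.25), *Syt1* (0.61), *Syn2* (0.50), *Syt11* (0.43) and *Syn1* probe 7050440 (0.070) stayed above 0, and *Syp* (-0.16), *Cplx1* (-0.084), *Syn1* probe 4920301 (-0.016), *Stx1a* (-0.027) and *Vamp2* (-0.27) were below it. Within the 11 arrays of the second chip set only *Syt1* and *Syt11* passed, and the slopes of *Cplx1* (-0.013) and *Syp* (-0.046) had the opposite sign. Without the BeadChip that held 6 arrays *Syp* (0.10, limma adjusted p = 0.142) and *Cplx1* (0.12, adjusted p = 0.116) no longer passed. *Syn1* probe 7050440 lost its call without 1 BeadChip of 3 arrays (adjusted p = 0.0696) or 1 of 5 (adjusted p = 0.0978), and *Vamp2* without 1 of 4 (adjusted p = 0.053). That *Syn1* probe also lost its call with the chip as a fixed block (0.14, adjusted p = 0.102), and within the 26 arrays of the first chip set neither it (0.14, adjusted p = 0.0827) nor *Vamp2* (-0.095, adjusted p = 0.0882) passed. For these subsets and the fixed block the share of all probes is not given. The lost calls are therefore not shown to be particular to the members.

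**Figure D2:**
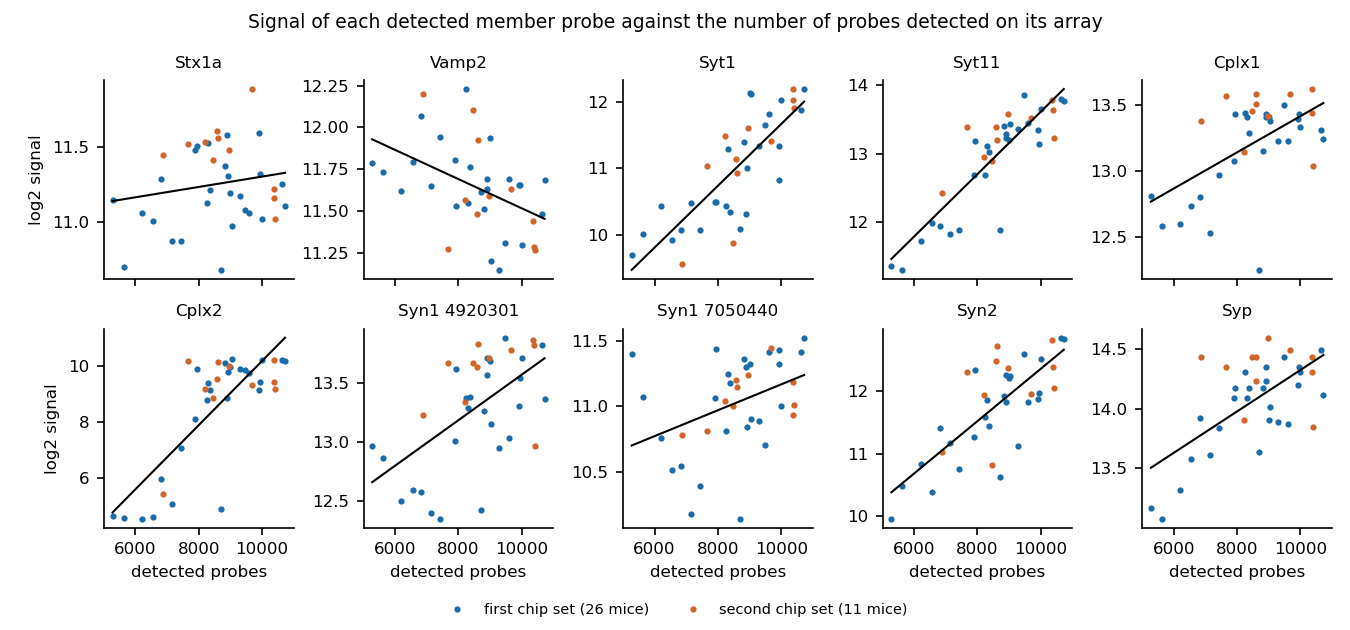
Log2 signal of each of the 10 detected member probes (vertical axes, each with its own range) against the number of probes detected on the same array (horizontal axis), 1 point per mouse, with the line of the limma fit. *Syt1*, *Syt11* and *Syn2* climb over the whole range, *Cplx2* drops to background on arrays with few detected probes, and *Vamp2* falls slightly.

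Of the tested cell type marker probes 28 of 43 passed in the same fit (65.1%, 17 rising and 11 falling), beside 37.6% of all tested probes rising and 29.4% falling. Among hippocampal neuron markers 4 of 9 tested probes rose and 1 fell. The summed linear signal of all 12 array probes of that list, untested ones included, ranged from 13777 to 35177 (Spearman's rho with the number of detected probes 0.12). The sums that follow likewise cover every array probe of a list. Of the astrocyte probes 4 of 6 rose and 0 fell (15625 to 25338, rho 0.64), of the oligodendrocyte probes 2 of 6 rose and 1 fell (9601 to 34500, rho 0.58), and of the interneuron probes 2 of 5 rose and 2 fell (8436 to 18618, rho -0.61). Microglia probes split into 1 that rose and 2 that fell (994 to 2318, rho -0.61) and endothelial probes into 2 and 2 (2065 to 4794, rho -0.43). Of 3 choroid plexus probes 0 rose and 1 fell (176 to 21338, rho -0.21), of 5 thalamic probes 2 rose and 0 fell (602 to 3196, rho 0.15), and both erythroid probes fell (2886 to 15458, rho -0.82). The part of these markers in the slopes of the release genes was not tested.

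The release genes were then compared pair by pair, for 9 pairs of partners, paralogs or probes of 1 gene. *Syp* and *Syn1* probe 4920301, both vesicle proteins, rose together over the 37 mice (Pearson's r = 0.78, Spearman's rho = 0.85, two-sided permutation p = 1e-05 for each, the smallest that 100000 permutations give). Without the 2 mice farthest from the median of *Syp* r was 0.86, and it was 0.74 in the 26 mice of the first chip set, 0.71 in the 11 of the second and 0.70 for values centred within chips. Ordered by r with *Syp*, this *Syn1* probe had rank 161 among 8540 other probes. In the fit on *Syp* the slope of this probe was 0.98 ± 0.13 (SE, limma adjusted p = 2.56e-07 over all tested probes). For the other *Syn1* probe, 7050440, r with *Syp* was 0.31 (rho = 0.26, permutation p = 0.059 and 0.12), at rank 3156 among 8540.

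The paralogs *Syn1* and *Syn2* also rose together. *Syn1* probe 4920301 and *Syn2* had r = 0.75 and rho = 0.77 (permutation p = 1e-05 for each, limma adjusted p = 4.52e-07 in the fit on *Syn1*), r = 0.74 without the 2 farthest mice, and r = 0.79 and 0.44 within the first and second chip sets. With *Syn1* probe 7050440 the relation was looser (r = 0.44, rho = 0.38, permutation p = 0.006 and 0.021). Ordered by r with each *Syn1* probe, *Syn2* had rank 358 for probe 4920301 and rank 1343 for probe 7050440. The 2 *Syn1* probes correlated with each other with r = 0.61 and rho = 0.41 (permutation p = 7e-05 and 0.013), and r was 0.49 without the 2 farthest mice. Probes of 1 gene thus shared only part of their variation, and ordered by r with probe 4920301 its companion had rank 1165 among 8540 probes.

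*Syt1* and *Syt11* rose together in the 28 mice of the upper *Syt11* group (r = 0.72, rho = 0.71, permutation p = 3e-05 and 4e-05), with r = 0.73 in 18 mice of the first chip set and 0.69 in 10 of the second. Ordered by r with *Syt1* over these 28 mice, *Syt11* had rank 822 among 8540 other probes. In the 9 mice of the low *Syt11* group r was -0.20 (exact permutation p = 0.63). For *Cplx1* and *Cplx2* only values within joint groups are given, because each splits the mice: r was 0.20 in 21 mice (permutation p = 0.39), 0.20 in 7 mice and -0.14 in another 7 (exact permutation p = 0.61 and 0.77).

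The SNARE partners *Vamp2* and *Stx1a* showed no detectable relation (r = 0.065, rho = 0.010, permutation p = 0.7 and 0.95 over 37 mice), nor did *Syp* and *Vamp2*, whose proteins bind each other (r = -0.060, rho = -0.12, permutation p = 0.72 and 0.49). Both relations depended on the scaling. Without quantile normalization r was 0.74 for *Vamp2* and *Stx1a* and 0.77 for *Syp* and *Vamp2*. All 9 pairs then had a permutation p under 0.05, against 5 of 9 with it. Without it 90.5% of all tested probes rose with the number of detected probes. With it, 56.7% of all tested probes passed in the fit on *Syp* and 64.1% in that on *Syn2*. The share of all other probe pairs that pass is not given for any setting. With the number of detected probes removed from both members of each pair, an alternative chosen after seeing the data, 5 of 9 pairs passed. Among them r was 0.66 for *Syp* and *Syn1* probe 4920301, 0.59 for that probe and *Syn2*, and 0.47 for *Syt1* and *Syt11*. It was 0.52 for the 2 *Syn1* probes. *Syp* and *Vamp2* now passed (r = 0.33, permutation p = 0.042), while *Syn1* probe 7050440 with *Syn2* no longer did (r = 0.25). Pairs with *Snap25* were not computed, since its probes were at background.

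**Figure D3:**
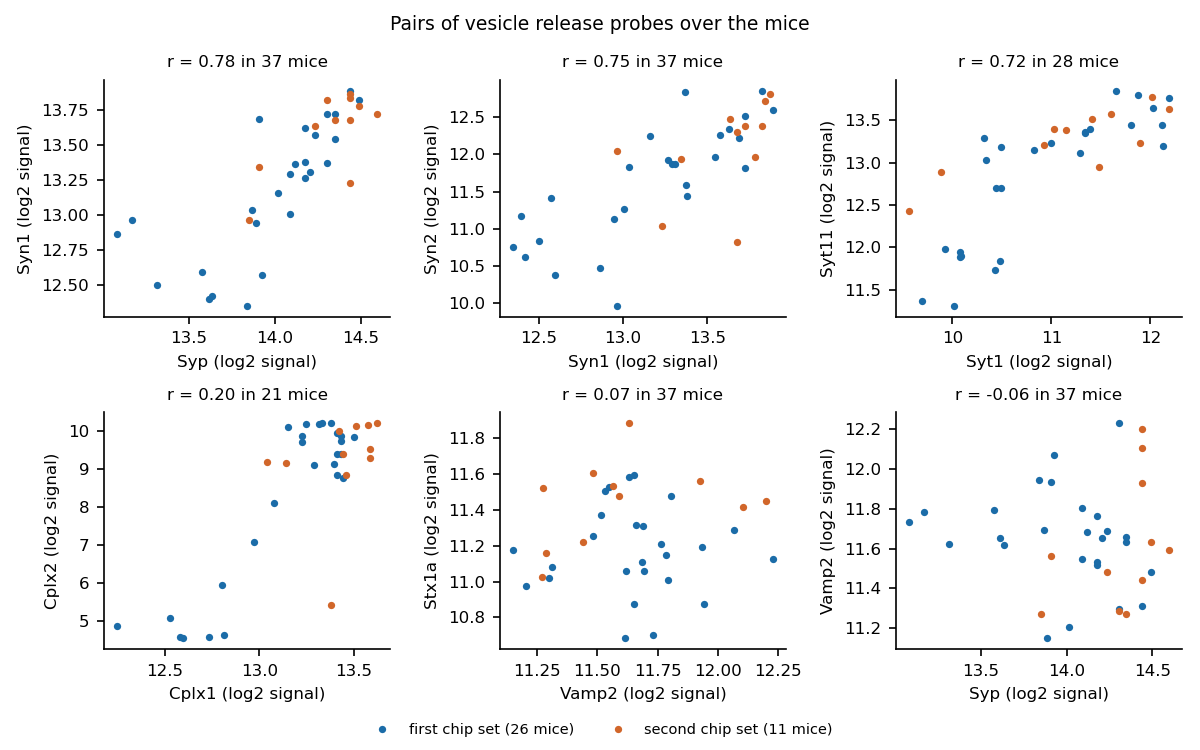
Log2 signals of 6 pairs of member probes, 1 point per mouse, colored by chip set, with *Syn1* shown by probe 4920301 and Pearson's r above each panel. All 37 mice are drawn, but r covers the 28 mice of the upper *Syt11* group for *Syt1* with *Syt11* and the 21 mice of the largest joint group for *Cplx1* with *Cplx2*.

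In fits on each of 9 members in turn, counted over probes of the other genes, 47 of 80 slopes passed. With *Syn2* as the covariate 9 of 9 probes passed, 8 rising and *Vamp2* falling by 0.15 ± 0.06 (SE, limma adjusted p = 0.0203), where 64.1% of all tested probes passed in either direction. With *Syt1* 7 rose and *Vamp2* fell (65.8% of all probes passed), with *Syn1* 7 of 8 rose (57.7%), and with *Syp* 7 of 9 rose (56.7%). Around *Stx1a* 6 of 9 rose (30.4% of all probes passed), among them *Cplx1* with a slope of 0.84 ± 0.17 and *Syp* with 0.86 ± 0.19. On *Syt11*, in its upper 28 mice, 3 of 9 rose and *Vamp2* fell (51% of all probes passed). *Vamp2* itself went with a fall of 4 of 9 probes, *Syt1* (-1.89 ± 0.38), *Syt11* (-1.34 ± 0.38), *Syn2* (-1.22 ± 0.42) and *Cplx2* (-3.13 ± 1.09), where 44.7% of all probes passed. Within the 30 mice of its upper group, *Cplx1* went with a rise of *Syn1* probe 4920301 (1.73 ± 0.26) and *Syp* (0.93 ± 0.21), 2 of 9 against 3.09% of all probes. Within its middle 21 mice, a cut range, *Cplx2* was followed by 0 of 9 (limma, 0.129% of all probes passed). The *Snap25* probe 360520, although at background, was also used as a covariate and was followed by 0 of 10 probes in 23 mice of its largest group (0% of all probes, and 0 of 10 at an unadjusted p under 0.05). Read against these shares, *Stx1a*, *Syn1*, *Syn2*, *Syp*, *Syt1* and *Cplx1* were followed by a greater share of the other members than of all probes, and *Syt11* and *Vamp2* by a like or smaller share. With the number of detected probes as a covariate, chosen after seeing the data, this turned for 2 members: *Syt1* was followed by 2 of 9 (29.9% of all probes passed) and *Syt11* by 4 of 9 (22%). *Vamp2* then was followed by 1 of 9 (16.5%), *Syt1* at -1.03 ± 0.29. The slopes on *Vamp2* of *Cplx2* (-0.59 ± 0.82), *Syt11* (-0.35 ± 0.25) and *Syn2* (-0.31 ± 0.34) no longer passed. Of the other members, *Syn2* was followed by 6 of 9 (15.8%), *Syp* by 6 of 9 (34.6%) and *Syn1* by 6 of 8 (37%). *Stx1a* was followed by 7 of 9 (36.6%), *Cplx1* by 3 of 9 (7.18%) and *Cplx2* by 0 of 9 in limma (0.0937%). These fits share the same mice and arrays and are not independent of each other. Those over all 37 mice pool the level groups of *Cplx1*, *Cplx2* and *Syt11*, and include arrays where *Cplx2* was at background.

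*Ly6a*, a cell surface gene on chromosome 15 that the study follows as its candidate, was detected on all 37 arrays (9.70 ± 0.99, SD, n = 37 mice, range 7.53 to 11.85). Of the 10 release probes 9 fell as *Ly6a* rose (limma, slope per log2 unit of *Ly6a*, adjusted p under 0.05), where 32.5% of all tested probes fell. *Cplx2* fell by 1.43 ± 0.23 (SE, adjusted p = 7.97e-06), *Syt11* by 0.55 ± 0.08 (adjusted p = 3e-06), *Syn2* by 0.52 ± 0.09 (adjusted p = 2.44e-05) and *Syt1* by 0.50 ± 0.11 (adjusted p = 0.000162). Smaller falls were measured for the *Syn1* probes (0.29 ± 0.06 and 0.20 ± 0.05), *Syp* (0.21 ± 0.05), *Cplx1* (0.20 ± 0.05) and *Stx1a* (0.13 ± 0.04), and *Vamp2* had a slope of 0.091 ± 0.046 (adjusted p = 0.0894). On the authors' normalized values *Vamp2* passed and rose (0.15, limma adjusted p = 0.00672), and the slope of *Cplx2* was -0.90. As before, the slopes of *Cplx1*, *Cplx2* and *Syt11* pool the level groups, and that of *Cplx2* includes arrays at background. Among probes detected on all 37 arrays 8 of 9 members fell, against 23.8% of all such probes. *Ly6a* itself was lower on arrays with more detected probes (r = -0.66, rho = -0.62, permutation p = 2e-05 and 0.00013 over 37 mice, r = -0.56 without the 2 farthest mice, -0.72 and -0.35 within the first and second chip sets). With the number of detected probes as a covariate, chosen after seeing the data, 0 of 10 release probes followed *Ly6a* (limma, 0.117% of all tested probes did), while 7 of 10 had an unadjusted p under 0.05 against 23% of all probes. The slopes then were -0.64 ± 0.25 for *Cplx2*, -0.22 ± 0.07 for *Syt11*, -0.17 ± 0.06 for *Stx1a* and 0.017 ± 0.058 for *Vamp2*, with limma adjusted p-values between 0.0874 and 0.888 over the 10 probes. Without quantile normalization of the probes and of *Ly6a* 0 of 10 passed as well, where 0% of all tested probes fell and 3.95% rose. With the chip as a fixed block 5 of 10 passed, and in the 11 arrays of the second chip set 0 of 10. For the fixed block, the second chip set and the fits without a BeadChip the share of all probes is not given. Without the BeadChip of 6 arrays the slopes of *Syp* (-0.10, limma adjusted p = 0.125) and *Stx1a* (-0.10, adjusted p = 0.123) no longer passed. Of the 43 tested cell type marker probes 15 fell with *Ly6a* and 8 rose, beside 32.5% and 24.1% of all tested probes. Of the neuron probes 5 of 9 fell and 0 rose, and of the astrocyte probes 3 of 6 fell and 0 rose. Interneuron probes split into 2 that fell and 2 that rose, oligodendrocyte probes into 1 and 1, and endothelial probes into 2 and 1. Of 5 thalamic probes 1 fell and 0 rose, and 0 of 3 choroid plexus probes passed. Both erythroid probes rose, and microglia probes split into 1 that fell and 2 that rose. The part of these markers in the slopes was not tested.

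The slope on *Ly6a* was compared between the chip sets by an interaction term, which no release probe passed (0 of 10, limma, 0% of all tested probes). Unadjusted p-values under 0.05 were found for *Syp* (second minus first set 0.41 ± 0.13, SE, limma adjusted p = 0.417), *Syn1* probe 4920301 (0.47 ± 0.15), *Cplx1* (0.36 ± 0.12) and *Syt11* (0.56 ± 0.21).

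**Figure D4:**
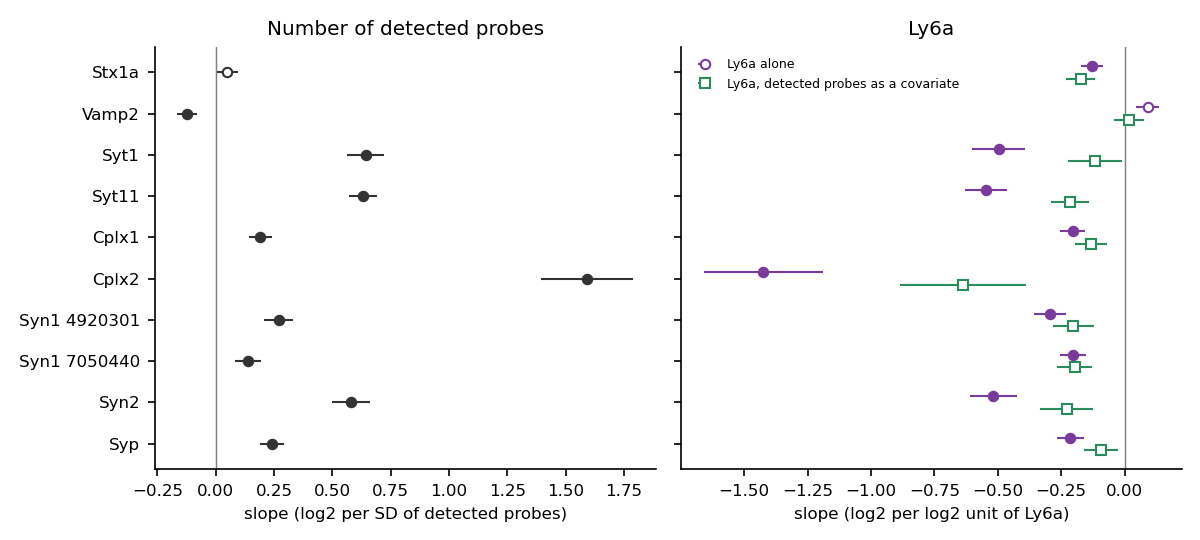
Slopes of the 10 detected member probes with their SE, on the number of detected probes (left, log2 units per SD) and on *Ly6a* (right, log2 units per log2 unit) alone or with the number of detected probes as a covariate. Filled symbols mark an adjusted p under 0.05. On the right, 9 filled circles lie below 0 and all squares are open.

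The rest of the release pathway was followed in the fit on the number of detected probes through lists of partners fixed by their roles, with earlier results of these data known. Of the 73 tested probes of these lists 26 were not detected on every array, and their slopes include arrays where they were at background. Among the SNARE partners and chaperones 4 of 6 tested probes rose and 1 fell. *Napa*, the SNAP adaptor that recruits NSF, rose by 0.90 ± 0.09 (SE, limma adjusted p = 1.93e-11, detected on 30 of 37 arrays), *Nsf*, the ATPase that takes spent SNARE bundles apart, by 0.49 ± 0.05 and *Dnajc5*, the vesicle chaperone CSP, by 0.71 ± 0.09. *Vamp1*, the other neuronal synaptobrevin, fell by 0.46 ± 0.06 (limma adjusted p = 2.62e-08), the same direction as *Vamp2*, and *Snap29* had a slope of -0.051 ± 0.057.

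Priming and active zone genes rose in 9 of 13 tested probes and fell in 0. Among those detected on every array were *Unc13a*, which primes vesicles (0.27 ± 0.05, SE), the Rab3 effector *Rph3a* (0.26 ± 0.05) and *Cadps* (0.16 ± 0.05). The scaffolds *Rims2* (0.85 ± 0.09) and *Rims1* (0.63 ± 0.10) were detected on 30 and 31 arrays, and *Pclo*, the scaffold piccolo, had slopes of -0.11 ± 0.06 and 0.053 ± 0.065 for its 2 probes. Vesicle membrane proteins were mixed, with 6 of 15 probes rising and 3 falling. *Sv2a* rose with both probes (0.31 ± 0.04 and, detected on 33 arrays, 0.57 ± 0.09), as did *Syngr1* (0.48 ± 0.08 and 0.35 ± 0.06), and the synaptotagmin *Syt4* rose by 0.40 ± 0.06, whereas *Syt9*, another calcium sensor of the family, fell by 0.32 ± 0.06 and *Syt3* by 0.19 ± 0.06. *Sypl*, a relative of synaptophysin, fell by 0.45 ± 0.09 with 1 probe, while its other probe had a slope of -0.034 ± 0.077.

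Of the vesicle transporters and subunits of the proton pump, 11 of 19 probes rose and 2 fell. *Atp6v1f*, a subunit of the pump, fell by 0.49 ± 0.04 (SE, limma adjusted p = 5.87e-13) and *Atp6v1b2* rose by 0.28 ± 0.03. For *Atp6v0d1* 2 probes rose by 1.09 ± 0.10 and 1.12 ± 0.12 but were detected on 31 and 27 arrays, while the third, detected on all, had a slope of -0.036 ± 0.036, so that the probes of this gene disagreed. The GABA transporter of vesicles, *Slc32a1*, rose by 0.18 ± 0.04, and the glutamate transporters *Slc17a7* (0.10 ± 0.09) and *Slc17a6* (-0.26 ± 0.19) did not pass. Endocytosis genes, which take vesicle membrane back, rose in 16 of 20 probes and fell in 1. The adaptor subunit *Ap2a2* rose by 0.66 ± 0.06 and the fission GTPase *Dnm1* by 0.64 ± 0.09 with a probe detected on every array and by 0.31 ± 0.09 with one detected on 19. The scaffold *Itsn1* rose by 0.69 ± 0.05 (limma adjusted p = 8.71e-14) and the clathrin light chain *Cltb* by 0.87 ± 0.08, with detection on 28 and 29 arrays. Over the 5 lists 46 of 73 probes rose and 7 fell, beside 37.6% and 29.4% of all tested probes, and the list medians lay between 0.061 and 0.36 against 0.035. Over the 47 list probes detected on all 37 arrays, 25 rose and 7 fell, beside 25.6% and 37.5% of all such probes.

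In the fit on *Ly6a*, for which 32.5% of all tested probes fell and 24.1% rose, the same lists were counted. Of the SNARE partners and chaperones 4 of 6 probes fell and 1 rose, of the priming and active zone genes 6 of 13 fell and 0 rose, of the vesicle membrane proteins 6 of 15 fell and 3 rose, of the transporters and pump subunits 10 of 19 fell and 2 rose, and of the endocytosis genes 14 of 20 fell and 0 rose. *Nsf* fell by 0.41 ± 0.07 (SE, limma adjusted p = 9.97e-06), *Rims2*, detected on 30 arrays, by 0.62 ± 0.13, *Ap2a2* by 0.55 ± 0.09 and *Dnm1* by 0.56 ± 0.11 with the first of its probes. *Vamp1* rose by 0.39 ± 0.07 and *Atp6v1f* by 0.40 ± 0.06. Over the 47 probes detected on all arrays 22 fell and 6 rose, beside 23.8% and 31.4% of all such probes. With the number of detected probes as a covariate 0 probes of each of the 5 lists passed in limma.

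**Figure D5:**
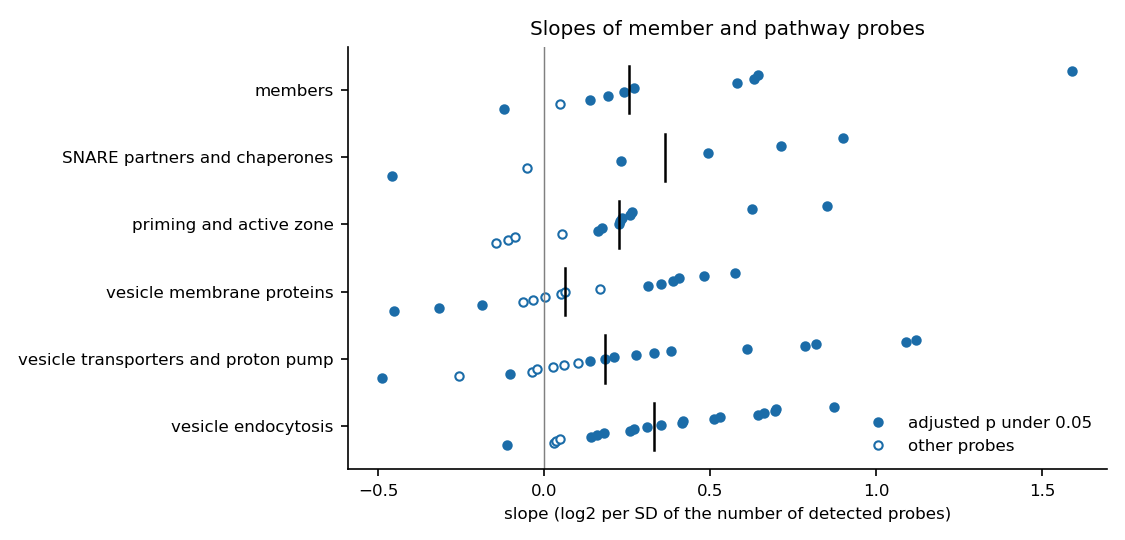
Slope of each tested probe on the number of detected probes (horizontal axis, log2 units per SD) for the members and the 5 lists of pathway genes, 1 point per probe, filled with an adjusted p under 0.05, with a bar at each median. *Cplx2* at 1.59 lies farthest right among the members, and the endocytosis list has 16 filled points above 0.

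The genes outside this set whose signal was most like each member over the mice of its fit, by Pearson's r, were taken 3 per member. For *Syn2* they were *Ccnd2* (r = 0.95), *Kcnh1* (0.93) and *Zmynd11* (0.91), and for *Syt1* the Riken gene 5730455P16Rik (0.96), *Trim2* (0.93) and *Luc7l3* (0.93), all over 37 mice. *Syp* was most like *Kctd13* (0.91), *Adgrl1* (0.91) and *Ncdn* (0.90), and *Syn1* most like *Coro2b* (0.92), the proton pump subunit *Atp6v0a1* (0.90) and *Aplp1* (0.90). *Coro2b* also led for *Cplx1* (0.81 in 30 mice), ahead of *Tubb4a* (0.78) and *Caskin1* (0.75). *Syt11* was most like *Traf3*, *Enc1* and *Myrip* (0.91, 0.90 and 0.90 in 28 mice), and *Cplx2* most like *Ppargc1b*, *N4bp1* and *Xpa* (0.83, 0.81 and 0.79 in 21 mice). The genes most like *Stx1a* were *Fbxo31* (0.83), *Mapk11* (0.83) and *Fkbp8* (0.80), and those most like *Vamp2* were *Ubxn1* (0.82), *Nhlrc1* (0.82) and *Retreg2* (0.81). The likest genes of *Vamp2* had slopes on the number of detected probes of -0.11, -0.19 and -0.12, and those of *Syt1* of 0.80, 0.62 and 0.67. These correlations were picked as the highest of 8541 probes that share arrays and normalization, and are given as a description.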

How the data were processed

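Each of the 37 CSS15F2 mice gave hippocampal RNA for a single Illumina MouseRef-8 V1.1 array. The deposited intensity values carry the BeadStudio background correction of the authors but no normalization across arrays. Subtracting the deposited detection score of a probe from 1 gave its detection p. A table of log2 values deposited by the authors, variance stabilized and robust spline normalized in lumi, served as an alternative. The main values were recomputed from the intensities: nec of limma 3.58.1 (R 4.3.3, offset 16) on the detection p-values, quantile normalization, then log2. In the alternative without quantile normalization, the median log2 value of an array over all its probes was subtracted instead. Where *Ly6a* or a member was the covariate, its values came from the same version of the data as the probes. Probes of the intensity table were joined to platform gene names through their ranks over the arrays, which matched all 24613 probes of the normalized table. Precision is limited by how many arrays there were and by how far a probe rose over background.

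Slopes, F tests and interactions were fitted with limma (lmFit and eBayes) over the 8541 probes detected on at least 19 arrays, with Benjamini-Hochberg adjustment over all of them and a threshold of 0.05. Mice were split into level groups by a Gaussian mixture of up to 3 normals (mclust 6.1.1, gain above 10), and a member that split the mice served as covariate in its largest group of at least 6 mice. Of several probes of a gene, the one detected on most arrays, then the brighter, served as covariate. Pairs were tested with 100000 two-sided permutations, or all permutations under 10 mice. The fits and the mixture rule were tested on simulated data. Genes were named by rule: all members, up to 6 pathway genes per list with the smallest adjusted p, the 3 likest probes and *Ly6a*, and *Snap29*, *Pclo*, *Cadps*, *Syt9*, *Syt3*, *Sypl*, *Slc17a6*, *Slc17a7*, *Slc32a1* and the further probes of a named gene were added after their values were seen. Members and lists were chosen with earlier results of these data known. The probe chosen for *Snap25* proved to be at background, and its fit is given only for completeness.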

Additional observations from a re-analysis of the deposited data

How the results depend on the processing

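The authors' normalized values, offset 50, other limits on detection, ranks of the covariate and the chip as a random block left every count of release probes within 1.5 times its value, but on the authors' values the *Cplx2* slopes were smaller (0.89 on the number of detected probes and -0.90 on *Ly6a*) and *Vamp2* passed with *Ly6a* (0.15). Leaving out 1 BeadChip at a time gave 7 to 9 probes following the number of detected probes, 7 to 9 following *Ly6a*, 42 to 48 links among members, and 0 for *Snap25*, BeadChips and chip sets. Without quantile normalization 0 probes followed *Ly6a*, where 0% of all tested probes fell and 3.95% rose. In that setting 75 of 80 links among members and 9 of 9 pairs passed. There 90.5% of all tested probes rose with the number of detected probes. The *Vamp2* slope on that number turned to 0.28 and the correlation of *Vamp2* with *Syp* to 0.77. Most counts of this section have no share of all probes beside them and are not shown to be particular to the members. Within the 11 arrays of the second chip set 2 probes followed the number of detected probes, 0 followed *Ly6a*, and 7 links and 2 pairs passed. There the slopes on the number of detected probes turned to -0.013 for *Cplx1* and -0.046 for *Syp*, and those on *Ly6a* to 0.12 for *Cplx1*, 0.13 for *Syn1* probe 4920301 and 0.16 for *Syp*. Fewer arrays enter that alternative. With the chip as a fixed block 5 probes followed *Ly6a* and 31 links passed. With the number of detected probes as a covariate, added after seeing the data, 0 probes followed *Ly6a* (0.117% of all tested probes did). The correlation of *Syp* and *Vamp2* then turned to 0.33. With that covariate and without quantile normalization 0 probes followed *Ly6a*, 1 differed between BeadChips, and the *Ly6a* slopes turned to 0.028 for *Cplx1* and 0.050 for *Syp*. The cause of these changes was not tested. No paired analysis was possible because all mice form 1 group. Probes near background, such as those of *Snap25* and the low *Cplx2* values, limit what can be read from these arrays.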
